A study of Homo sapiens with 8 samples.

Results

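Unlocalized contigs are assembled pieces of the human genome that are assigned to a chromosome but have no place on it, and unplaced contigs are assigned to no chromosome. Every peak whose sequence name marks such a contig was taken, apart from contigs of the sex chromosomes. This gave 1241 of the 1157865 peaks in 8 lists, on 20 contigs. The choice used only the name of the sequence and no measured value.

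The lists came from ChIP-seq in MCF10A, a non-tumorigenic human breast epithelial line. HP1a (HP1α, the product of CBX5) was precipitated from WT cells and from cells with an HP1B knock-down. HP1b (HP1β, the product of CBX1) was precipitated from WT cells and from cells with an HP1A knock-down. Each of these 4 groups had 2 libraries, replicates 1 and 2, with no other treatment named. The labels do not say how the knock-downs were made, how complete they were or whether the replicates were separate cultures, so p values measure only the spread between these libraries, which may be technical. In bulk cells, binding in fewer cells and weaker binding in each cell cannot be told apart.

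HP1 proteins bind histone H3 methylated at lysine 9 and compact the repeat-rich heterochromatin around centromeres and on the short arms of the acrocentric chromosomes. Many unlocalized and unplaced contigs hold such repeats, segmental duplications or ribosomal DNA, which could not be joined into the chromosomes of the reference. Reads from them often match several places equally well.

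The contig peaks were spread unevenly over the 20 sequences. The 11 unlocalized contigs held 1107 peaks (89.2%) and the 9 unplaced contigs held 134 (10.8%). The 5 contigs assigned to chromosome 14 held 989 peaks (79.7%), against 51 on 3 contigs of chromosome 22, 33 on 1 contig of chromosome 4, 25 on 1 of chromosome 17 and 9 on 1 of chromosome 1. A single contig, chr14_GL000225v1_random, held 887 peaks (71.5%). It was followed by chr14_KI270722v1_random with 92 peaks, chrUn_GL000219v1 with 44 and chr22_KI270733v1_random with 37. There were 5 contigs with a peak in all 8 libraries, and these held 1073 peaks. At the other end, 4 contigs had 1 peak in all. The unplaced contig chrUn_GL000220v1, which carries ribosomal DNA in the reference, had 0 peaks in the 8 lists.

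**Figure D1:**
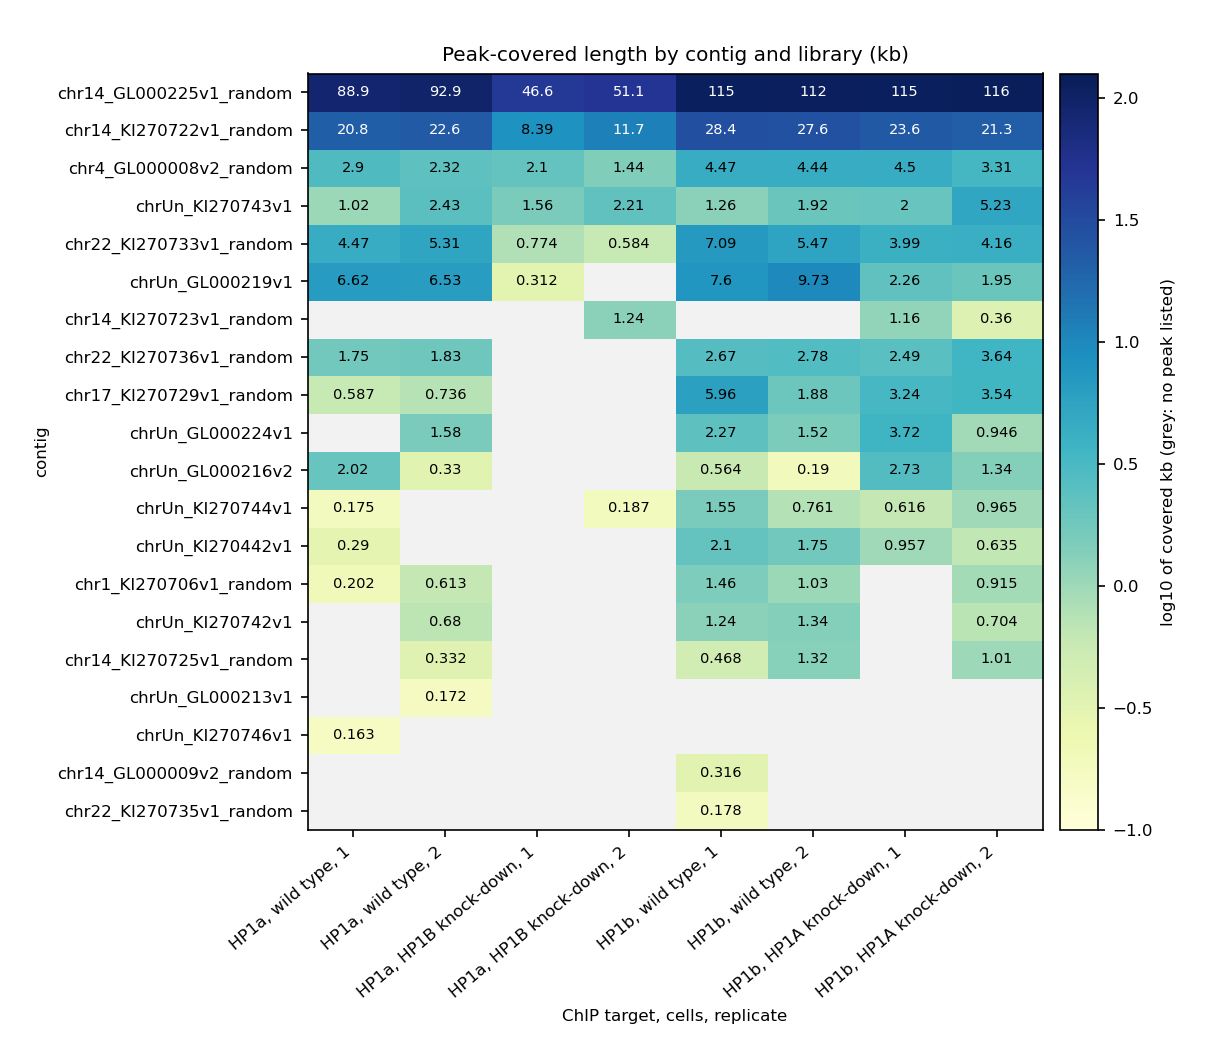
Peak-covered length (kb, number in each cell, colour on a log10 scale) of the 20 contigs (rows, ordered by their mean share of covered bases) in the 8 libraries (columns), with grey for no listed peak. The contig chr14_GL000225v1_random exceeds every other contig in every library, and most rows are grey in the HP1a libraries from HP1B knock-down cells.

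The names of the peaks carry serial numbers, and these bear on where the contig peaks were called. Each list was sorted by that number, and on the chromosomes only 0.293 to 0.399% of neighbouring numbers ran against the coordinates. On the contigs, 51.8 to 72.2% of neighbouring numbers did so. Peaks that overlapped another peak of the same list made up 36.9 to 63.1% on contigs and 0.0157 to 0.124% on chromosomes. A contig's peaks were also numbered among those of chromosomes. A number was called inside a chromosome if it lay within the 10% to 90% range of that chromosome's numbers, and otherwise between chromosomes. A number called between chromosomes may thus stand among the first or last numbers of either. Of the 1107 peaks on unlocalized contigs, 48 (4.34%) stood inside that range of their own chromosome and 518 (46.8%) stood inside or beside it. On chr14_GL000225v1_random, 354 peaks (39.9%) were numbered between chromosomes 13 and 14, 245 (27.6%) inside chromosome 1, 159 (17.9%) between chromosomes 21 and 22, and 113 (12.7%) between chromosomes 20 and 21. All 24 peaks of chrUn_KI270743v1 were numbered between chromosomes 12 and 13. How coordinates and numbers came to differ is not given in the sources used here. A peak on a contig is therefore described below at its deposited position, and whether its signal was measured there was not tested.

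Contig peaks differed from chromosome peaks of the same list in 3 measures that the choice of members did not use. They were met more often in the other replicate, with an overlap of at least 1 base. The share ran from 58.6 to 85.03% for contig peaks and from 6.21 to 48.7% for chromosome peaks. The mean difference was 50.2 ± 10.8 percentage points (SD, n = 8 libraries), above 0 in 8 of 8 (exact sign-flip permutation test, two-sided, p = 0.00781, adjusted p = 0.0117 over the 3 measures). The 2 libraries of a group enter each other's share, so these 8 values are not independent. Over the means of the 4 pairs the difference was above 0 in 4 of 4, with an exact sign-flip p of 0.125, the lowest that 4 pairs allow. Without chr14_GL000225v1_random the difference was 32.7 ± 13.2 points, above 0 in 8 of 8 libraries. Contig peaks were wider by 131 ± 66.7 bases in the median (8 of 8 libraries, exact sign-flip p = 0.00781, adjusted p = 0.0117), and by 119 ± 93.8 bases without chr14_GL000225v1_random (7 of 8, exact p = 0.0234). The part of width and of overlapping peaks in the replicate overlap was not tested.

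The deposited fold enrichment, a peak's signal over the background as given by the authors' peak caller, was also higher on contigs in the median. The medians were 3.68 and 3.62 on contigs against 3.29 and 3.26 on chromosomes for HP1a in WT cells. For HP1a in HP1B knock-down cells they were 3.36 and 3.35 against 3.37 and 3.32, so the values of replicate 1 ran the other way by a small margin. Without chr14_GL000225v1_random both of these libraries lay below the chromosomes, at 3.26 and 3.20 on contigs. For HP1b they were 3.18 and 3.38 against 2.93 and 3.03 in WT cells, and 2.97 and 3.01 against 2.79 and 2.79 in HP1A knock-down cells. The mean difference was 0.223 ± 0.150 (n = 8), above 0 in 7 of 8 libraries (exact sign-flip permutation p = 0.0156, adjusted p = 0.0156). Without chr14_GL000225v1_random it was 0.238 ± 0.252, above 0 in 6 of 8 (exact p = 0.0391). Among peaks with −log10 p of at least 4 it was 0.0480 ± 0.108 (5 of 8 libraries, exact p = 0.250), so this difference did not hold for the stronger peaks.

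**Figure D2:**
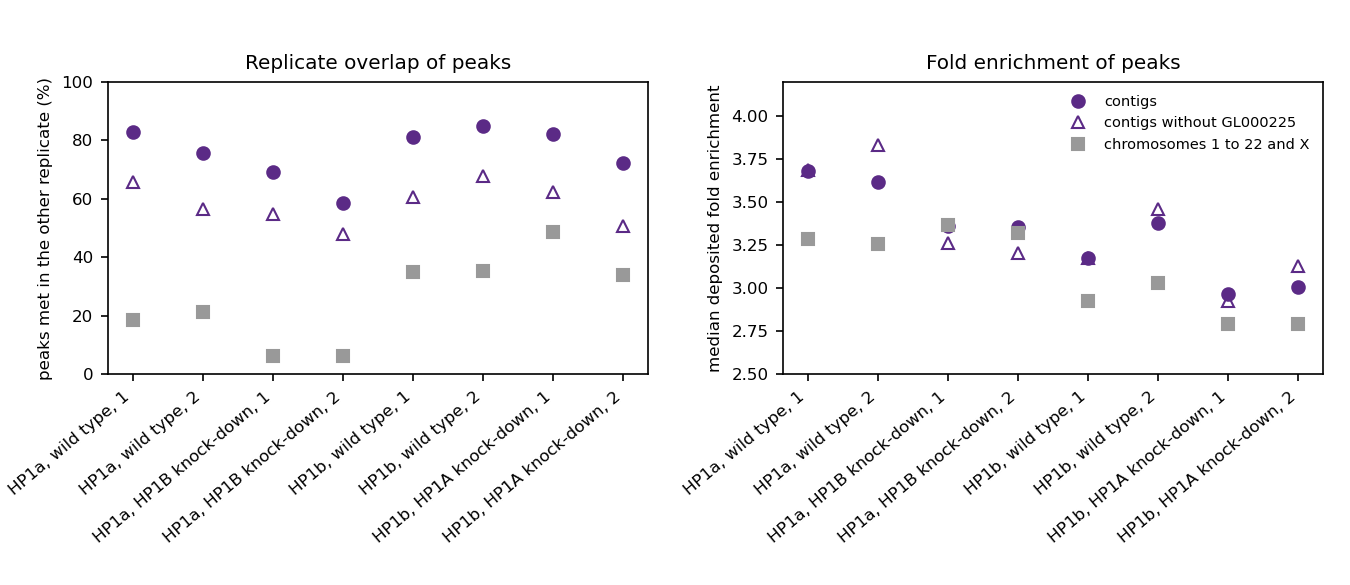
Left, share of peaks (%) that overlap a peak in the other replicate, and right, median deposited fold enrichment, for contig peaks (circles), contig peaks without chr14_GL000225v1_random (triangles) and peaks of chromosomes 1 to 22 and X (squares) in each library. Circles and triangles lie above the squares in all 8 libraries on the left; on the right, circles and squares nearly coincide in the HP1a libraries from HP1B knock-down cells, and the triangles lie below both.

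The first comparison asked how HP1a peaks on contigs differed when HP1b was depleted. The HP1a lists held 168 and 164 contig peaks in WT cells and 65 and 111 in HP1B knock-down cells. These lay on 13 and 14 contigs in WT cells and on 6 and 7 in knock-down cells. They covered 129.9 and 138.4 kb in WT cells (134 ± 5.94 kb, n = 2) and 59.8 and 68.4 kb in knock-down cells (64.1 ± 6.12 kb). Both knock-down libraries lay below both WT libraries in all 3 measures (exact permutation test on peaks and on contigs, two-sided, p = 0.333, the lowest that 2 against 2 allows). The covered length on contigs was thus 2.09-fold less, while that of the whole list was 6.62-fold less, from 70.2 and 60.7 Mb to 9.99 and 9.78 Mb.

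Contigs therefore took a higher share of what remained. They held 0.185 and 0.228% of all HP1a peak-covered bases in WT cells and 0.598 and 0.700% in HP1B knock-down cells, a share 3.14-fold higher (exact permutation p = 0.333). Without chr14_GL000225v1_random the share was 2.32-fold higher in the mean, with 0.0585 and 0.0748% in WT cells and 0.132 and 0.177% in knock-down cells. The direction depended on the length of the lists. With the same number of strongest peaks taken from each library, the share was 1.21 and 0.901% in WT cells and 0.611 and 0.700% in knock-down cells. Of the peaks with −log10 q of at least 2, WT lists held 56 and 42 on contigs, and each knock-down list held 1. That peak lay on chr22_KI270733v1_random in replicate 1 and on chr14_GL000225v1_random in replicate 2. Of the bases covered by such peaks, contigs held 1.12 and 1.52% in WT cells and 0.6805 and 0.311% in knock-down cells.

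**Figure D3:**
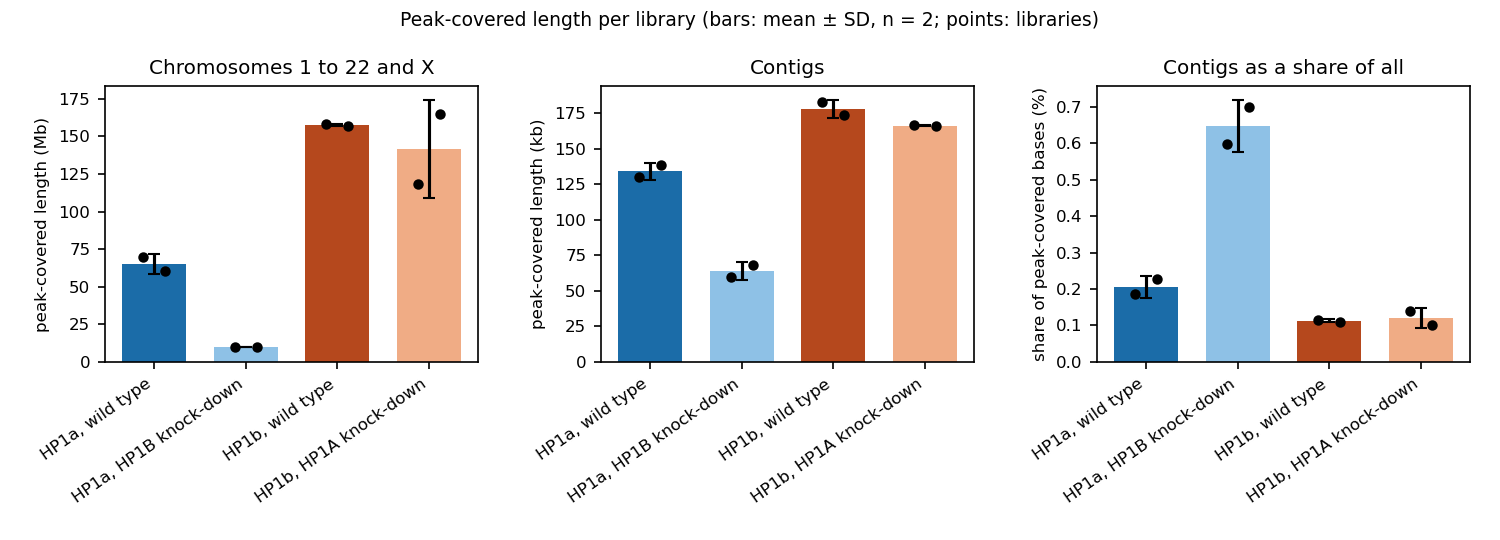
Peak-covered length on chromosomes 1 to 22 and X (Mb, left), on contigs (kb, middle) and the contigs' share of all peak-covered bases (%, right), with bars for the mean, error bars for the SD (n = 2) and points for libraries. HP1a coverage in HP1B knock-down cells is lower by a smaller factor on contigs than on chromosomes, and the share is 0.598 and 0.700% against 0.185 and 0.228% in WT cells.

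Contigs were then tested one by one with the 1 Mb bins of the chromosomes, using covered bases per Mb of each library's covered total. In limma with Benjamini-Hochberg adjustment over 2889 features, 3 of the 11 contigs fitted were relatively higher in HP1B knock-down cells and 0 were lower (5 at an unadjusted p under 0.05 in either direction). Of all features, 7.37% were called higher and 8.31% lower. The median log2 change was −0.06 over the contigs and −0.34 over all features. The contigs called were the 2 largest by coverage, chr14_GL000225v1_random and chr14_KI270722v1_random, and the unplaced chrUn_KI270743v1. Without replicate 1 of WT HP1a only chr14_GL000225v1_random was called, and without replicate 2 chrUn_KI270743v1 was not (limma adjusted p = 0.384). In every comparison of 2 groups without a library, the lone library of its group is assumed to vary like the other group, so such fits rest on the spread of 2 libraries.

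On chr14_GL000225v1_random, HP1a covered 1267 and 1530 bases per Mb in WT cells and 4667 and 5224 in HP1B knock-down cells. The log2 difference was 1.77 (SE 0.19, limma adjusted p = 0.0036), and the groups did not overlap. Without scaling to the list total it was −0.88 (adjusted p = 0.0015), since the covered length itself was lower. With the same number of top peaks per library it was −0.40 (adjusted p = 0.443), and with peaks of −log10 p of at least 4 it was 0.75 (adjusted p = 0.314). On chr14_KI270722v1_random the values were 297 and 371 bases per Mb in WT cells and 840 and 1192 in knock-down cells (log2 difference 1.38, SE 0.26, limma adjusted p = 0.0185). This turned to −1.05 without scaling and −1.15 with the same number of top peaks (limma adjusted p = 0.0043 and 0.0270). On chrUn_KI270743v1 they were 14.6 and 39.98 against 157 and 226 (log2 difference 1.31, SE 0.33, limma adjusted p = 0.0430), with 0.12 unscaled and 0.25 with the same number of top peaks.

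The remaining contigs did not pass. For chr4_GL000008v2_random the log2 difference was 1.08 (limma adjusted p = 0.0644). For chrUn_GL000219v1 it was −0.91 (limma adjusted p = 0.0760), and this contig went from 6.62 and 6.53 kb of HP1a peaks in WT cells to 0.312 and 0 kb. Its direction was the same in every alternative run. It was called lower with either HP1B knock-down library left out, where the spread came from the WT libraries alone and 1 of the lone values was 0, so these calls add no support. The segments of this contig covered in at least 4 of the 8 libraries lay between positions 4069 and 12399 and at 46313 to 46870. For chr22_KI270733v1_random the covered length was 4.47 and 5.31 kb in WT cells and 0.774 and 0.584 kb in knock-down cells, about in proportion to the list total (log2 difference −0.06, limma adjusted p = 0.898).

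Some contigs had a peak in both HP1a libraries of WT cells and in neither of HP1B knock-down cells. There were 4 such contigs among 10 with a peak in both WT libraries, where 0.867% of contigs and bins with a peak in both did so. They were chr22_KI270736v1_random, chr1_KI270706v1_random, chrUn_GL000216v2 and chr17_KI270729v1_random. Their WT coverage was low, from 0.202 kb on chr1_KI270706v1_random to 2.02 kb on chrUn_GL000216v2. A bin of 1 Mb and a contig differ in length, so the 2 shares do not count alike. The opposite case was not seen on a contig for HP1a (0 of 5 contigs with a peak in both knock-down libraries, and 0% of all features).

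Place by place, contig regions of HP1a were kept more often than chromosome regions. Of 51 contig regions listed in both WT replicates, 22 (43.1%) were met by a peak in both knock-down replicates and 15 (29.4%) in neither. On chromosomes 1.49% of 24309 regions were met in both and 88.5% in neither. Outside chr14_GL000225v1_random, 10 of 26 contig regions were met in both and 10 in neither. In the other direction, 28 of the 30 contig regions of HP1a in knock-down cells (93.3%) were met in both WT libraries and 2 in neither, against 23.3% met in both and 45.5% in neither of 1212 chromosome regions. With the same number of top peaks per library, 17 of 29 WT contig regions (58.6%) were met in both, against 6.29% on chromosomes. From the knock-down side, 21 of 30 (70%) were then met in both WT libraries and 3 in neither, against 5.18% and 81.1% on chromosomes. Regions on contigs are wider and often stacked, which gives an overlap more room, and its part in these shares was not tested.

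The second comparison asked how HP1b peaks on contigs differed when HP1a was depleted. HP1b lists held 175 and 187 contig peaks in WT cells and 168 and 203 in HP1A knock-down cells, on 17 and 15 contigs and on 13 and 16. The covered length was 182.9 and 173.8 kb in WT cells (178 ± 6.50 kb) and 166.5 and 166.1 kb in knock-down cells (166 ± 0.322 kb). The contigs' share of all covered bases was 0.115 and 0.110% in WT cells and 0.140 and 0.1004% in knock-down cells, and these overlapped (exact permutation test, two-sided, p = 1.0). Knock-down replicate 1 was the shorter list, with 160082 peaks against 226855 in replicate 2, and it gave the higher share.

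In limma 1 of 16 contigs was called lower and 0 higher (1 at an unadjusted p under 0.05), where 11.8% of 2907 features were called lower and 6.91% higher. This was chrUn_GL000219v1, with 7.60 and 9.73 kb of HP1b peaks in WT cells and 2.26 and 1.95 kb in HP1A knock-down cells. Its relative coverage was 47.9 and 61.7 against 19.1 and 11.8 bases per Mb, and the groups did not overlap. All these values lay under the pseudocount of 122 bases per Mb, which understates the change. With it, the contig had a log2 difference of −0.36 (SE 0.09, limma adjusted p = 0.0228). It was not called when either WT replicate was left out (limma adjusted p = 0.0868 and 0.269). The peaks at 4069 to 5299, listed in 4 WT libraries in whole or in part, were met in 1 of the 2 HP1A knock-down libraries and in neither HP1B knock-down library.

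On the largest contig HP1b did not differ beyond the spread. It covered 115.4 and 112.0 kb of chr14_GL000225v1_random in WT cells and 115.3 and 116.1 kb in HP1A knock-down cells (log2 difference in relative coverage 0.17, limma adjusted p = 0.489). Without knock-down replicate 1 that difference was −0.03, and with the same number of top peaks −0.11. Without knock-down replicate 2 it was 0.38, in a fit whose spread came from the WT libraries alone. On chr14_KI270722v1_random HP1b covered 28.4 and 27.6 kb in WT cells and 23.6 and 21.3 kb in knock-down cells (log2 difference −0.08, limma adjusted p = 0.787). One small contig of chromosome 14, chr14_KI270723v1_random, had a peak in both HP1A knock-down libraries (1.16 and 0.360 kb) and in neither WT library. It was the 1 gained contig among 13 with a peak in both knock-down libraries, and it was also the only feature gained among all 2896 contigs and bins with a peak in both (0.0345%). The same contig had 1.24 kb of HP1a peaks in replicate 2 of the HP1B knock-down and none in the 3 other HP1a libraries.

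Of 55 contig regions of HP1b in both WT libraries, 37 (67.3%) were met in both HP1A knock-down libraries and 7 (12.7%) in neither. On chromosomes 35.6% of 81252 regions were met in both and 34.6% in neither. From the side of the knock-down, 33 of 50 contig regions were met in both WT libraries and 6 in neither, where 25.2% of chromosome regions were met in neither.

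The changes of the 2 paralogs were compared with an interaction term over all 8 libraries. In limma 0 of 16 contigs were called (5 at an unadjusted p under 0.05), and 0.103% of 2907 features were. The highest contig was chr14_GL000225v1_random, whose HP1a change exceeded its HP1b change by 1.58 on the log2 scale (SE 0.26, limma adjusted p = 0.0522). It was followed by chr14_KI270722v1_random at 1.44 (limma adjusted p = 0.0747) and chrUn_KI270743v1 at 1.03 (limma adjusted p = 0.0774). Without scaling these were −0.90, −0.71 and −0.53. The lowest were chr22_KI270736v1_random at −0.41, chrUn_GL000216v2 at −0.40 and chrUn_GL000219v1 at −0.39. With a library left out, the difference ranged from 1.37 to 1.79 for chr14_GL000225v1_random, 1.19 to 1.65 for chr14_KI270722v1_random and 0.81 to 1.19 for chrUn_KI270743v1. The lowest contigs ranged from −0.45 to −0.38, −0.56 to −0.26 and −0.56 to −0.19, in the order given.

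The third comparison set HP1b against HP1a in WT cells, where the HP1a libraries are those of the first comparison and the HP1b libraries those of the second. HP1b covered 1.33-fold more of the contigs than HP1a, but 2.42-fold more of all sequences, so its contig share was lower (0.115 and 0.110% against 0.185 and 0.228%, exact permutation p = 0.333). In limma 2 of 15 contigs were called lower for HP1b and 0 higher (4 at an unadjusted p under 0.05), with 5.41% of 2903 features called lower and 3.82% higher. These were chr14_GL000225v1_random (727 and 711 against 1267 and 1530 bases per Mb, log2 difference −0.85, SE 0.15, limma adjusted p = 0.0036) and chr14_KI270722v1_random (179 and 175 against 297 and 371, log2 difference −0.60, SE 0.15, limma adjusted p = 0.0215). Without scaling both turned, to 0.29 and 0.26, and with the same number of top peaks they were −0.20 and −0.04, so this difference too depended on the scaling and on the list length. With a library left out, the contigs called varied. The log2 difference then ran from −0.97 to −0.72 for chr14_GL000225v1_random and from −0.71 to −0.48 for chr14_KI270722v1_random.

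In place, contig regions of HP1a were mostly met by HP1b, and in the full lists those of HP1b less often by HP1a. Of 51 contig regions of WT HP1a, 42 (82.4%) were met in both WT HP1b libraries and 2 in neither, against 42.7% and 23.9% on chromosomes. Of 55 WT HP1b contig regions, 32 (58.2%) were met in both WT HP1a libraries and 10 in neither, where 50.3% on chromosomes were met in neither. Outside chr14_GL000225v1_random, 20 of 26 HP1a regions and 15 of 31 HP1b regions were met in both libraries of the other protein. With the same number of top peaks per library, 81.6% of HP1a and 71.4% of HP1b contig regions were met in both libraries of the other protein. On chromosomes these shares were 25.5 and 22.3%. Among peaks with −log10 p of at least 4 they were 63.2 and 66.7% on contigs, and 18.5 and 16.0% on chromosomes. Which of the 2 contig shares was higher thus depended on the peaks taken. The part of wide and stacked regions in these shares was not tested.

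The contig chr14_GL000225v1_random was described further because it held most of the peaks. They lay between positions 65 and 198919 (hg38) and together covered 154.7 kb. HP1a covered 88.9 and 92.9 kb of it in WT cells and 46.6 and 51.1 kb in HP1B knock-down cells. In WT cells this was 57.4 and 60.1% of the union, in HP1B knock-down cells 30.1 and 33.02%, and in the 4 HP1b libraries 72.4 to 75.0%. All 8 libraries covered 11.9 kb in common, in 24 short segments of which the widest, at 21106 to 22538, had 1433 bases. Up to 7 peaks of a list lay on the same base.

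Its replicates were less alike in the HP1B knock-down. Of the bases covered in either replicate, both replicates covered 68.7% for HP1a in WT cells, 23.0% for HP1a in HP1B knock-down cells, 69.4% for HP1b in WT cells and 64.5% for HP1b in HP1A knock-down cells. Both WT HP1a libraries covered 74.05 kb in common, and both HP1B knock-down libraries 18.3 kb. Of the WT HP1a bases in common, 18.4% were covered in both HP1B knock-down libraries. Of the knock-down bases in common, 74.6% were covered in both WT HP1a libraries. The part of the lower coverage in these shares was not tested. Of the WT HP1a bases in common, 92.0% were covered in both WT HP1b libraries.

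The longest stretch covered in at least 6 libraries ran from 91273 to 130581, with 39.3 kb. It was chosen for its coverage, and its values are a description. The 4 HP1b libraries and the 2 WT HP1a libraries covered 98.8 to 100% of it. The HP1a libraries of the HP1B knock-down covered 18.8 kb (47.7%) and 9.06 kb (23.0%), with 9 and 21 peaks against 28 and 28 in WT cells.

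**Figure D4:**
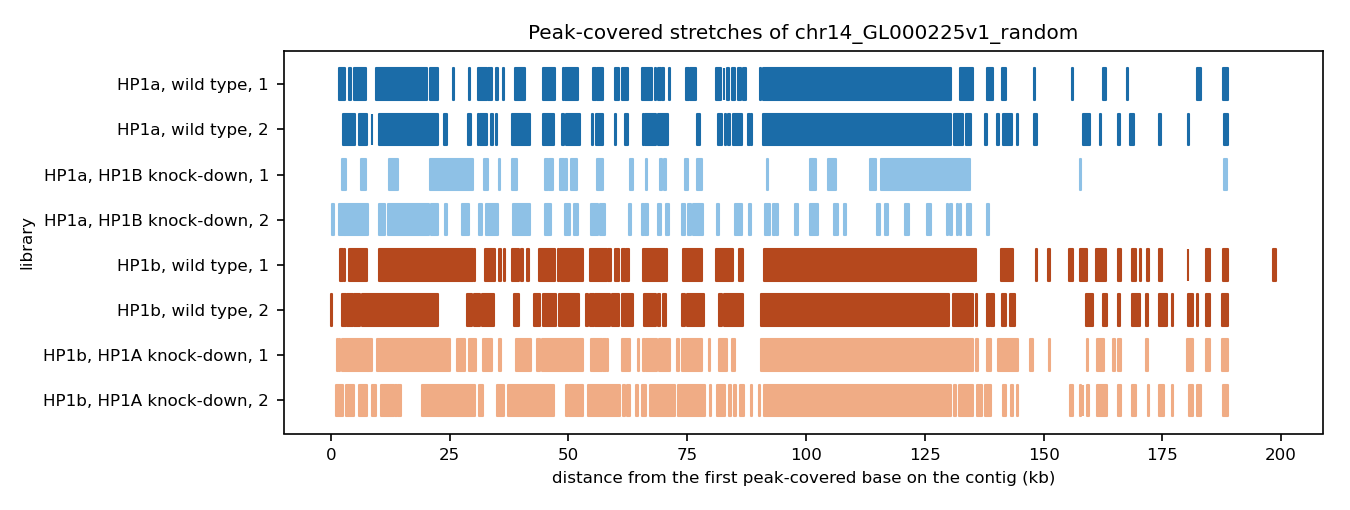
Peak-covered stretches of chr14_GL000225v1_random in the 8 libraries (rows, coloured by group) against the distance from its first peak-covered base (kb). The block near 91 to 131 kb is filled in 6 libraries and broken in both HP1a libraries from HP1B knock-down cells.

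The peaks of this contig were then split by where their serial numbers stood, a split chosen after the numbers were seen. Peaks numbered between chromosomes 13 and 14 covered 72.1 and 78.1 kb for HP1a in WT cells and 8.61 and 21.8 kb in HP1B knock-down cells (75.1 ± 4.28 against 15.2 ± 9.32 kb, 4.94-fold less). Peaks numbered inside chromosome 1 covered 33.5 and 27.0 kb in WT cells and 36.6 and 23.4 kb in knock-down cells (30.3 ± 4.61 against 30.0 ± 9.39 kb), and these groups overlapped. The sets numbered between chromosomes 20 and 21 and between 21 and 22 lay in between, with 2.82-fold and 2.67-fold less HP1a coverage in knock-down cells. Differences between the 4 sets were not tested. For HP1b the set between chromosomes 13 and 14 covered 104.9 and 93.5 kb in WT cells and 93.7 and 88.2 kb in HP1A knock-down cells. The set inside chromosome 1 covered 21.6 and 30.3 kb in WT cells and 52.7 and 47.6 kb in knock-down cells, 1.93-fold more, without overlap of the groups. The sets between 20 and 21 and between 21 and 22 differed by factors of 0.837 and 1.19.

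On chr14_KI270722v1_random peaks were gathered at one end. Of the 12 segments listed in at least 6 libraries, 11 lay between positions 156506 and 190344, and the widest was at 165036 to 170266. HP1a covered 20.8 and 22.6 kb of this contig in WT cells and 8.39 and 11.7 kb in HP1B knock-down cells (21.7 ± 1.21 against 10.03 ± 2.31 kb). Its serial numbers stood between chromosomes 13 and 14 for 91 of 92 peaks. On chr4_GL000008v2_random the recurrent place was the start of the contig, where 1 segment of 686 bases at 678 to 1363 was covered in all 8 libraries. On chrUn_KI270743v1 the segment of 183 bases at 159912 to 160094 was covered in at least 6 libraries.

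The contig chr22_KI270733v1_random carried the strongest contig peaks of the WT lists. It holds a ribosomal RNA unit in the reference, the DNA from which RNA polymerase I makes the 45S precursor of the 18S, 5.8S and 28S ribosomal RNAs. RefSeq on GRCh38.p14 lists RNA45SN4 under chromosome 22 at 122273 to 135645, without naming the contig in the table used here, so its placement on this contig is background. Of the 37 peaks, 18 lay at lower coordinates than RNA45SN4, 5 within it and 14 at higher coordinates.

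A narrow place at 143703 to 144058, 8.06 to 8.41 kb beyond the higher end of RNA45SN4, had a peak in all 4 WT libraries and in none of the 4 knock-down libraries. Its fold enrichment was 7.76 and 7.37 for HP1a and 5.28 and 6.41 for HP1b. In both WT HP1a lists it was the peak with the highest fold of 134590 and of 116018 peaks. In the HP1b lists it ranked 38 of 240368 and 4 of 240907. The 4 peaks began within 57 bases of each other. This place was noticed for its values, so its absence from the knock-down lists is a description with no test.

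A wider peak at 144758 to 146300 was listed in 6 libraries, with starts within 2 bases. Its fold was 4.22 and 3.602 for HP1a in WT cells, 3.91 in replicate 1 of the HP1B knock-down, 3.77 and 3.603 for HP1b in WT cells and 3.19 in replicate 1 of the HP1A knock-down. In that HP1B knock-down library it had a −log10 p of 11.03, the highest of the 19783 peaks. Replicate 2 of either knock-down had no peak there. Another place at 147176 to 147503 was listed in 3 of the 4 WT libraries, at folds from 3.62 to 5.44, and in no knock-down library. The 13 peaks at these 3 places were numbered between chromosomes 20 and 21, and the other 24 peaks of the contig between chromosomes 14 and 15.

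**Figure D5:**
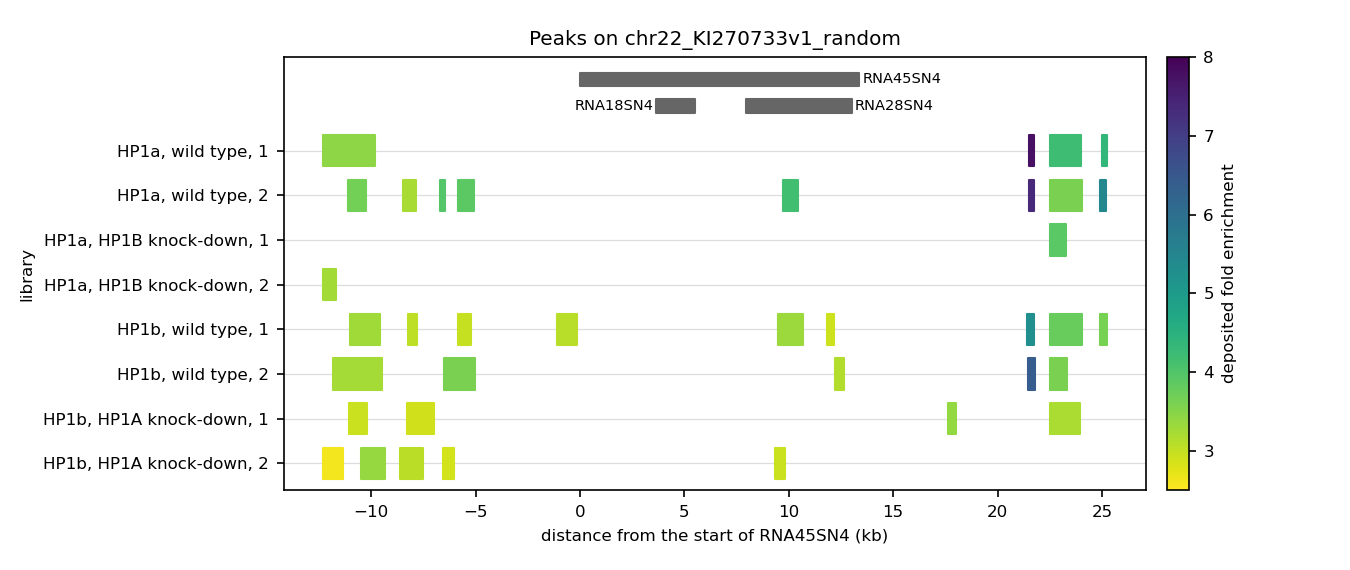
Peaks on chr22_KI270733v1_random in the 8 libraries (rows) by distance from the start of RNA45SN4 (kb), coloured by deposited fold enrichment; grey bars at the top show RNA45SN4, RNA18SN4 and RNA28SN4 (peaks under 0.25 kb are drawn at 0.25 kb). The darkest peaks, near 21.5 kb, are present in all 4 WT libraries and in no knock-down library.

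Elsewhere the highest fold on a contig was lower. On chr14_GL000225v1_random the strongest peak of a library had a fold from 4.001 to 5.80. The highest was at 118648 to 118860 for WT HP1a (rank 36 of 116018). The strongest peaks of the 8 libraries lay at different places on this contig, apart from replicate 1 of WT HP1b and replicate 2 of HP1b in HP1A knock-down cells, whose strongest peaks overlapped near 141547 to 141714. On chr14_KI270722v1_random the highest fold of a library ran from 3.47 to 4.90. The single peak of chrUn_KI270746v1 had a fold of 4.56 in 1 WT HP1a library.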

How the data were processed

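ChIP-seq of HP1a and HP1b was done in formaldehyde-cross-linked MCF10A cells with 76-base paired-end reads, per the labels' protocols. MACS3, Bowtie2, Trimmomatic and SAMtools and the build hg38 are named in the submitters' processing notes. Of versions, settings, control libraries and reads with several matches the text used here says nothing. Each deposited list holds broad peaks with a score (10 times −log10 q), a fold enrichment (a ratio), a −log10 p value and a −log10 q value, all from the authors' peak caller. No read counts are listed, so depth is unknown and no counting interval was set. A place without a peak is one with no listed peak.

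Contig members, measures and comparisons were chosen with earlier results of these data known. Peaks were read as deposited, and overlapping peaks were merged when bases were counted. Contigs were fitted with 1 Mb bins of chromosomes 1 to 22 and X in limma 3.58.1 (R 4.3.3) on log2 of covered bases per Mb of the library's covered bases. A pseudocount was added, the 10th percentile of values above 0 (83.7, 122, 125 and 98.6 bases per Mb in the 3 comparisons and the interaction). This understates the change of small contigs. A feature needed a peak in at least 2 libraries, with Benjamini-Hochberg adjustment and a threshold of 0.05. On simulated data with 200 features changed by 2 on the log2 scale, the fits recovered 145, 195, 198 and 168, with 12, 13, 6 and 7 false calls. Values per library were compared with exact permutation tests. Serial numbers were placed against the 10% to 90% range of each chromosome's numbers.

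Contigs were named by a rule: the 8 with the highest mean share of covered bases, those called, the extremes of a comparison without calls, up to 4 lost and 4 gained, the 4 with the highest median of strongest folds, and chrUn_GL000220v1. The places on chr22_KI270733v1_random and the split by serial number were singled out after their values were seen. No sequence is printed because no genome was used. Alternatives were: peaks with −log10 p of at least 4 or −log10 q of at least 2, the same number of top peaks, a pseudocount multiplied by 4, no filter, no scaling, scaling to chromosomes, 100 kb bins, 50% overlap, all 8 libraries in 1 fit, a replicate block and each library left out. The crossed pairing, the test over replicate pairs and library measures without chr14_GL000225v1_random were added after seeing the data.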

Additional observations from a re-analysis of the deposited data

Results flagged for a closer look

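For 2 contigs every HP1a library of the HP1B knock-down lay below every WT HP1a library, while every HP1b library of the HP1A knock-down lay above every WT HP1b library. For chr22_KI270736v1_random relative coverage was 24.98 and 30.1 bases per Mb in WT and 0 and 0 in knock-down cells for HP1a, and 16.8 and 17.6 against 20.99 and 22.02 for HP1b. The difference between the changes was −0.41 on the log2 scale (limma interaction, adjusted p = 0.165). For chrUn_GL000216v2 it was 28.8 and 5.43 against 0 and 0 for HP1a, and 3.55 and 1.21 against 23.0 and 8.11 for HP1b, with a difference of −0.40 (limma interaction, adjusted p = 0.213). Neither passed the threshold. The HP1a lists of the knock-down covered 6.62-fold less of all sequences, and the share of all features with this pattern was not counted. Both contigs had few peaks, 13 and 17 over all libraries, and all values of both lay under the pseudocount of 98.6 bases per Mb.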

How the results depend on the processing

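The direction of contig differences depended on the length of the lists compared. In the first comparison 0 contigs were called higher with −log10 p of at least 4, −log10 q of at least 2, equal numbers of top peaks or no scaling. Bins called higher in these settings were 6, 15, 175 and 3. In the last 3 of these settings 3 of 6, 2 of 7 and 6 of 11 contigs were called lower. The bins called lower were 1629, 115 and 2738, of 2491, 2868 and 2889 features. With 100 kb bins 2 of 11 contigs were higher and 2 lower, with 392 bins higher and 6360 lower of 26085 features. All 8 libraries in 1 fit gave 4 of 11 higher and 1 lower, with 335 bins higher and 723 lower of 2889 features. With a library left out, the contigs called varied. The log2 change was then 1.64 to 1.9 for chr14_GL000225v1_random, 1.13 to 1.60 for chr14_KI270722v1_random and 1.06 to 1.54 for chrUn_KI270743v1. In the second comparison 0 were called lower with −log10 q of at least 2, no scaling, 100 kb bins or all 8 libraries. Bins called lower there were 0, 52, 1120 and 28, of 2853, 2907, 28011 and 2907 features. With a library left out, the contigs called varied, and the log2 change of chrUn_GL000219v1 ran from −0.43 to −0.31. In the third, 0 were lower in those settings, at −log10 p of at least 4 and with equal numbers. Bins called lower were also 0 in these settings, apart from equal numbers with 110 of 2902 features. Without scaling 2 of 15 contigs were higher, with 2778 bins of 2903 features. With a library left out, the contigs called varied. In the interaction a larger pseudocount gave 2 of 16 contigs higher, with 25 bins higher of 2907 features. Peaks with −log10 q of at least 2 gave 1 of 11 lower, with 849 bins lower of 2881 features. No scaling gave 4 of 16 lower, with 2507 bins lower of 2907 features. Leaving out a library gave 0 to 5 higher and 0 to 1 lower, with contigs called only where an HP1B knock-down library was left out. Such fits hold 1 library in a group, so their calls add no support.

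In the first comparison, −log10 q of at least 2 put chr14_GL000225v1_random at −3.96, chr14_KI270722v1_random at −5.81, chrUn_KI270743v1 at −1.75 and chr4_GL000008v2_random at −2.95. Equal numbers put the first, second and last at −0.40, −1.15 and −0.34, and no scaling at −0.88, −1.05 and −0.38. In the second, chr14_GL000225v1_random was at −1.14 (−log10 p), −1.58 (−log10 q), −0.11 (equal numbers) and −0.029 to 0.379 (a library left out). In the third, it was at 0.0105 (−log10 p) and 0.29 (no scaling), and chr14_KI270722v1_random at 0.17 (−log10 p), 0.05 (−log10 q) and 0.26 (no scaling). In the interaction −log10 q and no scaling gave −2.50 and −0.90 for chr14_GL000225v1_random, −3.70 and −0.71 for chr14_KI270722v1_random and −1.48 and −0.53 for chrUn_KI270743v1, and equal numbers −0.0508 and −0.38 for the last 2.

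The HP1a contig share (knock-down minus WT, percentage points) was −0.827 (−log10 q) and −0.400 (equal numbers, with 10 more contig peaks). The HP1b share was −0.318 (−log10 p), −0.789 (−log10 q), −0.0202 (equal numbers), −0.00418 (without chr14_GL000225v1_random) and −0.0124 to 0.0275 (a library left out). HP1b contig peaks differed by −5 without that contig and by −13 to 22 with a library left out (−1.5 without WT replicate 1). Contigs with an HP1b peak differed by 0 (−log10 p), 2 (−log10 q) and −3 to 0 (a library left out). In the third comparison the share differed by 0.0372 (−log10 p), peaks by −41.5 (−log10 p), −6 (−log10 q) and −29.5 (equal numbers), and contigs by 0 (−log10 q). Contig fold over chromosome fold was 0.0480 (−log10 p, exact permutation p = 0.250). The replicate overlap was 50.2 over pairs of libraries (exact p = 0.125). Other causes were not tested.

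Deviations of libraries with the same replicate number correlated at 0.052, 0.317 and −0.207 in the 3 comparisons. With 2 pairs each and no label that ties them, they were treated as sharing only a number. A replicate block left 3 of 11 contigs higher in the first comparison, with 237 bins of 2889 features. It left 1 of 16 lower in the second, with 658 bins of 2907 features. It left 1 of 15 lower in the third, with 86 bins of 2903 features. In the third chr14_KI270722v1_random was no longer called (limma adjusted p = 0.0576). With crossed numbers in the third, added after seeing the data, 2 of 15 contigs were lower, with 202 bins of 2903 features. Lists without read counts limit every value.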
